A study of Mus with 17 samples.

Results

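The Notch pathway was described in whole liver through 10 of its genes, chosen by name from the per-library counts: the receptors Notch1, Notch2, Notch3 and Notch4, the ligands Jag1, Jag2 and Dll4, and the target genes Hes1, Hey1 and Heyl. All 10 had a row among the 24937 genes with values, and 9 passed the low count filter and were tested; Jag2 did not pass. Livers of 8 male C57BL6/JBomTac mice were taken after 52 weeks of western diet with fructose in the water at 42 g/L, a feeding scheme that the labels use to bring about advanced steatohepatitis, a fatty liver disease with inflammation. They were compared with livers of 9 male mice of the same strain and matched age that were kept on standard chow with unsweetened water for that time. The labels name no transgene or deletion in either diet, and mice of both diets went without food overnight before death.

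Notch receptors are single-pass membrane proteins that are activated by ligands on a neighbouring cell. Binding lets proteases cut the receptor, and its inner part moves to the nucleus, where it joins the DNA-binding protein RBPJ and switches on genes such as those of the HES and HEY repressors. In liver the pathway is known for shaping bile ducts and vessels, and inherited loss of JAG1 or NOTCH2 function in humans causes Alagille syndrome, in which bile ducts are scarce.

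The libraries held between 3604212 and 9071908.5 counts. Levels are CPM, the counts scaled to a common library size with TMM factors. A count of 0 leaves room for up to 3 counts, for counting error only. Over the library totals before TMM scaling, that is 0.331 to 0.832 CPM depending on the library. Levels are not divided by transcript length, so they are compared between the diets and never between genes. Hepatocyte markers were abundant in every library, with a summed level of 7834 to 13052 CPM on western diet and 10237 to 13474 CPM on chow. Western diet replicate 5 and chow replicate 2 carried transcripts of exocrine pancreas, at a summed 5532 CPM against at most 338 CPM in the other western diet livers, and at 17465 CPM against at most 598 CPM in the other chow livers. The labels pair no mice and name no batch, and the 8 and 9 libraries were taken as separate mice, as the description of the series counts them.

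Western diet livers held more transcript of the ligands Jag1 and Dll4, of all 3 target genes and of the receptor Notch3, while the other 3 receptors did not pass the test. Hey1 was 3.99-fold higher, Notch3 1.82-fold, Heyl 1.81-fold, Dll4 1.69-fold, Jag1 1.66-fold and Hes1 1.65-fold (n = 8 western diet and 9 chow). Of the 9 tested members 6 rose at an adjusted p under 0.05 in edgeR's quasi-likelihood test, whereas 24.8% of all 13204 tested genes rose, 23.6% fell and 48.4% were called in either direction. With library size alone as the scaling, 6 members rose again, where 34.0% of all genes rose and 12.2% fell. Without the 2 libraries with pancreatic transcripts 6 rose as well, where 24.2% of 13059 genes rose and 22.4% fell. The median log2 difference, western diet minus chow, was 0.73 over the 9 tested members and −0.0091 over all tested genes. The members were listed with earlier results of these data known, so these counts and medians describe them and test no excess. By that test 0 members fell; Notch2 was the 1 member lower at an unadjusted p under 0.05, and 0 fell with DESeq2 or limma-voom. Leaving out any 1 of the 17 libraries ended none of the 6 rises.

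**Figure D1:**
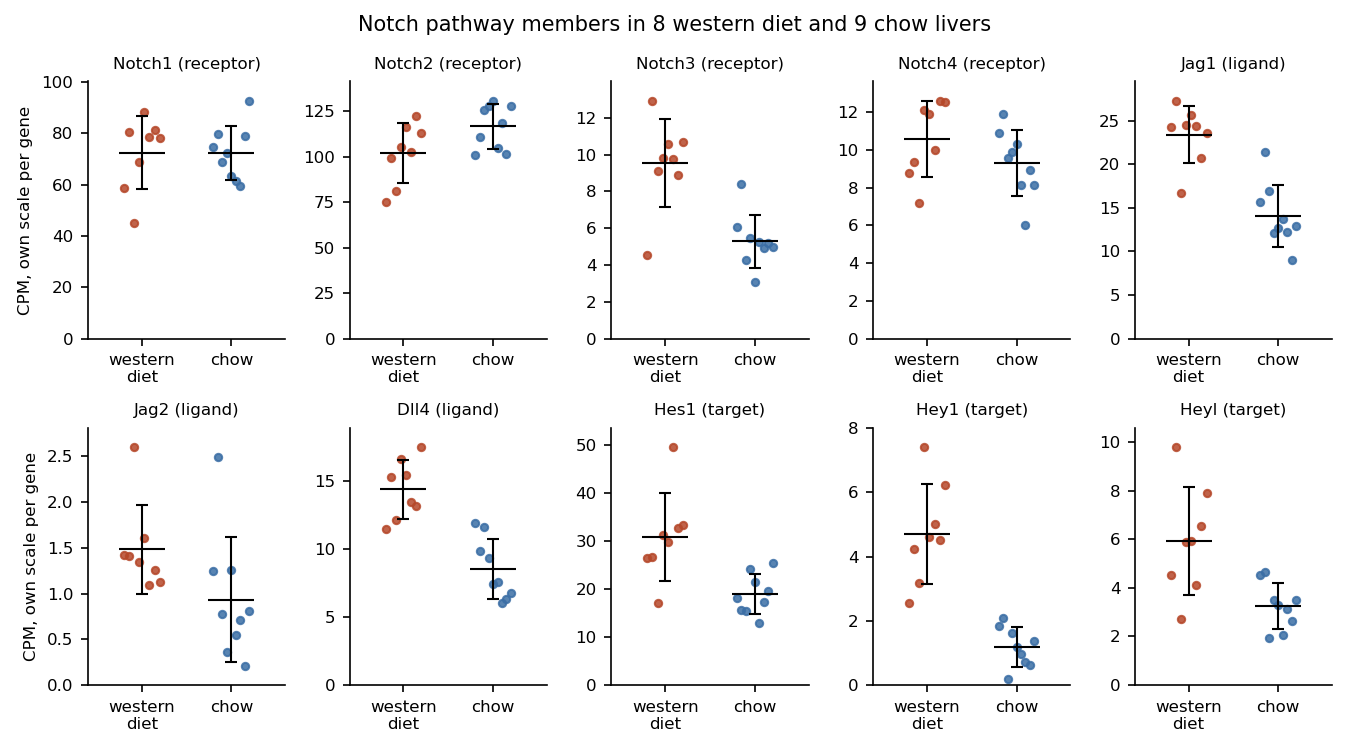
CPM of each of the 10 members in every library, western diet left and chow right, each panel on its own linear scale from 0; points are livers, the long bar is the mean and the whiskers are the SD (n = 8 and 9). Hey1 is the member whose points do not overlap between the diets, and Notch1 has the same mean of 72.4 CPM on both diets.

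Of the receptors, Notch3 alone passed. Notch3 is the receptor of vascular smooth muscle cells and pericytes, the mural cells that wrap vessels. Its lowest, median and highest levels were 4.53, 9.78 and 12.9 CPM in western diet livers, against 3.07, 5.19 and 8.40 CPM in chow livers. In 7 of 8 western diet livers it lay above every chow liver; the exception was western diet replicate 1, the shallowest library, where the value rested on 16 counts. The log2 difference was 0.86 ± 0.17 (SE), with a 95% interval of 0.50 to 1.23 and an adjusted p of 4.51e-04.

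Notch1, a receptor found on many cell types and with a known role in endothelium, did not differ detectably. It lay at 44.9, 78.5 and 88.4 CPM (lowest, median, highest) in western diet livers and at 59.5, 72.3 and 92.7 CPM in chow livers, and the ranges overlapped broadly. The log2 difference of 0.0070 had a 95% interval of −0.23 to 0.25 (adjusted p = 0.967), and its sign changed between settings. Notch2, the receptor needed for bile ducts, lay at 75.0, 104 and 122.5 CPM in western diet livers and at 101, 118 and 131 CPM in chow livers. Its log2 difference of −0.19 ± 0.092 did not pass (95% interval −0.38 to −0.00026, adjusted p = 0.0910), and with library size alone it was −0.058 (adjusted p = 0.671). Notch4, an endothelial receptor, lay at 7.16, 10.96 and 12.6 CPM in western diet livers and at 5.99, 9.55 and 11.9 CPM in chow livers, with broad overlap. Its log2 difference was 0.20 ± 0.14 (95% interval −0.091 to 0.49, adjusted p = 0.251).

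Whether the make-up of the receptors differed was tested on the share of each in the summed CPM of all 4, a measure that does not depend on how libraries are scaled. Notch3 made up 4.92 ± 1.12% of the summed CPM on western diet and 2.61 ± 0.719% on chow (mean ± SD, n = 8 and 9), and its share was above the chow median in 8 of 8 western diet livers. The ranges overlapped, with western diet replicates 1 (3.09%) and 7 (3.95%) below chow replicate 2 (3.98%). The difference of 2.30 percentage points had an adjusted p of 0.00132 in a two-sided exact permutation test over all 24310 labellings, adjusted over the 4 receptors. The share of Notch2 was lower, at 52.5 ± 2.49% on western diet and 57.3 ± 4.42% on chow (exact permutation test, adjusted p = 0.0331), and that of Notch4 was higher, at 5.44 ± 0.548% and 4.58 ± 0.839% in that order of diets (exact permutation test, adjusted p = 0.0331). Both of these smaller differences were borderline: that of Notch2 no longer passed without western diet replicate 1 or 8 or chow replicate 7 (adjusted p 0.0505 to 0.0633), and that of Notch4 without western diet replicate 1, 4, 7 or 8 or chow replicate 7 or 9 (adjusted p 0.0545 to 0.0695). For Notch1 the shares were 37.1 ± 2.92% on western diet and 35.5 ± 3.74% on chow (exact permutation test, adjusted p = 0.330). Shares mix level and transcript length, so they are read only between diets, within a gene. The shares of a set add up to its whole, so a higher share of some genes lowers the others, and their tests are not independent.

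**Figure D2:**
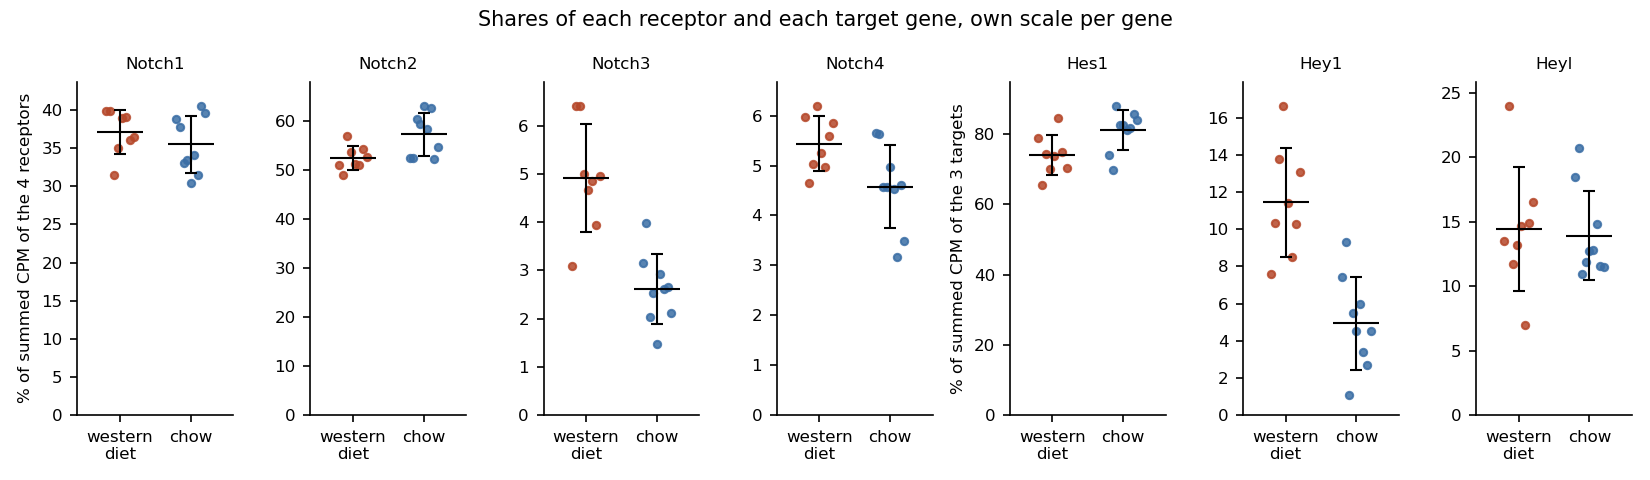
Share of each receptor in the summed CPM of the 4 receptors (the 4 left panels) and of each target in the summed CPM of the 3 targets (the 3 right panels), in percent, western diet left and chow right; points are livers, with mean and SD (n = 8 and 9). The share of Notch3 averages 4.92% on western diet and 2.61% on chow, and that of Hey1 11.5% and 4.94% in the same order.

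The ligands Jag1 and Dll4 rose by similar amounts. Jag1 is a ligand of bile duct cells, portal stroma and endothelium that acts on neighbouring cells. It lay at 16.7, 24.3 and 27.3 CPM (lowest, median, highest) in western diet livers and at 9.06, 12.9 and 21.4 CPM in chow livers. In 6 of 8 western diet livers Jag1 was above every chow liver, while western diet replicates 3 and 7 lay below chow replicate 2, the chow library with pancreatic transcripts, and replicate 3 also just below chow replicate 3. The log2 difference was 0.73 ± 0.13 (95% interval 0.45 to 1.01, adjusted p = 1.48e-04). Without both libraries with pancreatic transcripts it was 0.81 (adjusted p = 2.61e-05).

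Dll4, a ligand made mainly by endothelium, where it restrains the sprouting of neighbouring cells, lay at 11.5, 14.4 and 17.5 CPM in western diet livers and at 6.05, 7.58 and 11.9 CPM in chow livers. Only western diet replicate 1 lay within the chow range, at 11.5 CPM against 11.9 CPM in the highest chow liver. The log2 difference was 0.75 ± 0.14 (95% interval 0.46 to 1.05, adjusted p = 2.12e-04). Dll4 overlaps the annotated gene Gm14207, Notch1 overlaps 0610009E02Rik and Mir6996, and Jag2 overlaps Mir6941. Hey1 overlaps LOC115489673, Notch3 overlaps Gm38585 and Gm41568, and Notch2 overlaps Gm40103, partners without a row of their own in the counts. Without a known strand setting, reads of any of these partners cannot be told apart from those of the member.

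Jag2, the other Jagged ligand, was close to the limit of detection. It had 5 to 14 counts per library on western diet and 1 to 16 on chow, which were 1.09, 1.38 and 2.60 CPM (lowest, median, highest) in western diet livers and 0.204, 0.772 and 2.49 CPM in chow livers. Of the 9 chow livers 6 lay below every western diet liver, and chow replicate 2 lay above all but western diet replicate 3. The gene was not tested in the fit reported here; where no low count filter was set, its log2 difference was 0.62 ± 0.34 (adjusted p = 0.179), and with DESeq2 it was 0.64 ± 0.37 (adjusted p = 0.166). The balance of the 3 ligands did not differ detectably: Jag1 made up 59.4 ± 3.91% of their summed CPM on western diet and 59.8 ± 3.69% on chow (mean ± SD), Dll4 36.7 ± 3.27% and 36.5 ± 4.77% in the same order, and the 3 exact permutation tests gave adjusted p = 0.921 each.

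The target genes Hes1, Hey1 and Heyl encode related repressors that bind DNA with a basic helix-loop-helix domain. Hey1, which is known from endothelium and the forming vessels of the embryo, had the largest difference of the 9 tested members, at percentile 98.8 of all tested genes by log2 difference. It lay at 2.55, 4.55 and 7.41 CPM (lowest, median, highest) in western diet livers and at 0.193, 1.18 and 2.10 CPM in chow livers. Every western diet liver was above every chow liver, which held for 7.01% of all tested genes, and for none of the other 9 members. The log2 difference was 1.997 ± 0.28 (95% interval 1.41 to 2.58, adjusted p = 9.65e-06), and it was the member whose rise passed a test against a 1.5-fold change. The chow values rest on 1 to 13.5 counts per library, so the size of the fold is less sure than its direction.

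Hes1, the classic direct target of the pathway, also responds to other signals. It lay at 17.1, 30.5 and 49.7 CPM in western diet livers and at 13.0, 18.2 and 25.5 CPM in chow livers. In 7 of 8 western diet livers it was above every chow liver; western diet replicate 3 lay below the chow median, and western diet replicate 6 was the highest. The log2 difference was 0.72 ± 0.17 (95% interval 0.37 to 1.07, adjusted p = 0.00142).

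Heyl, a target known from mural cells, where Notch3 is the main receptor, lay at 2.70, 5.90 and 9.79 CPM in western diet livers and at 1.93, 3.31 and 4.67 CPM in chow livers. In 5 of 8 western diet livers it was above every chow liver, and western diet replicate 3 was again the lowest of its diet. The log2 difference was 0.86 ± 0.23 (95% interval 0.38 to 1.33, adjusted p = 0.00417).

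Within the summed CPM of the 3 targets, the share of Hey1 was 11.5 ± 2.95% on western diet and 4.94 ± 2.49% on chow (exact permutation test, adjusted p = 8.64e-04, adjusted over the 3 targets), higher than the chow median in 8 of 8 western diet livers. The ranges of this share overlapped, with western diet replicates 1 (7.59%) and 6 (8.52%) below chow replicate 2 (9.34%). Hes1 made up less of it, 74.1 ± 5.76% on western diet and 81.1 ± 5.67% on chow (exact permutation test, adjusted p = 0.0383). This lower share is mostly the counterpart of the higher share of Hey1, by 6.51 percentage points. The level of Hes1 itself was 1.65-fold higher on western diet. The difference in the share of Hes1 failed in 13 of the 17 tests that left out 1 library (adjusted p 0.0518 to 0.0806). Of those 17 tests it passed only without western diet replicate 1 or 6 or chow replicate 1 or 2. With both libraries with pancreatic transcripts left out it passed too (−8.39 percentage points, exact permutation test, adjusted p = 0.0140). For Heyl the shares were 14.4 ± 4.80% and 13.9 ± 3.45% in that order of diets (exact permutation test, adjusted p = 0.807). This comparison of the targets was chosen after their values were seen.

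**Figure D3:**
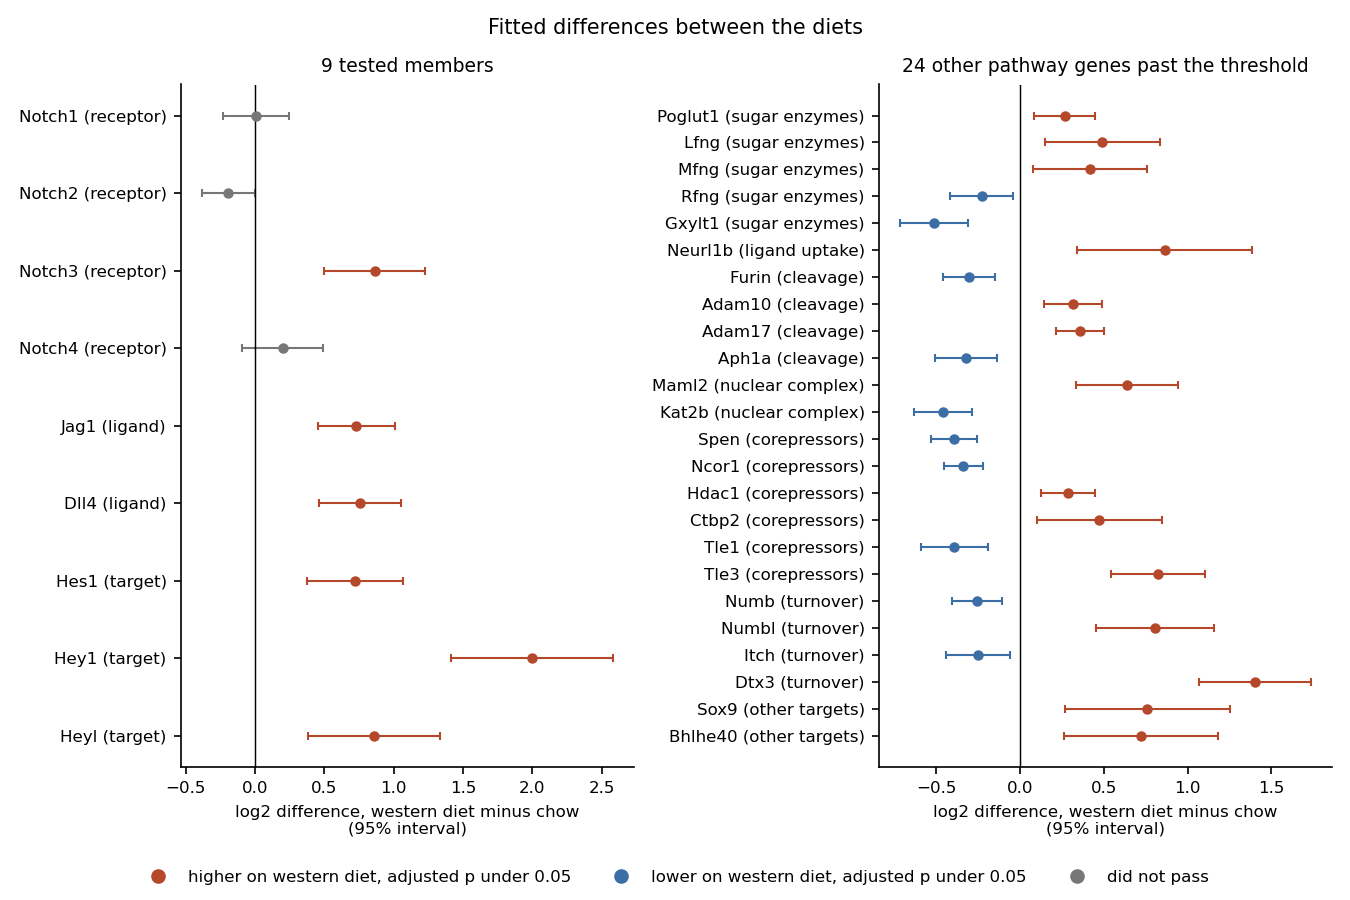
Fitted log2 difference, western diet minus chow, with its 95% interval, for the 9 tested members (left) and the 24 other pathway genes past the threshold (right), with the role of each gene in brackets. The members that passed all lie to the right of 0, with Hey1 at 1.997, whereas the other pathway genes lie on both sides, 14 higher and 10 lower on western diet.

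The remaining parts of the pathway were followed through a list of 71 other genes in 8 roles, of which 60 were tested. On western diet 14 of them rose, 10 fell and 36 did not pass, so that 40.0% were called, against 48.4% of all tested genes; their median log2 difference was −0.017. The share called was thus no higher than the background. The counts by role that follow stand against 24.8% of all tested genes rising and 23.6% falling. Of the other ligands only Dll1, a Delta ligand, was tested, at 7.35 ± 2.31 CPM on western diet and 8.69 ± 1.96 CPM on chow (mean ± SD; log2 difference −0.25 ± 0.17, adjusted p = 0.249).

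Enzymes that attach sugars to the receptor, which tune how it answers each ligand family, moved both ways, with 3 of 7 rising and 2 falling. Of all tested genes 24.8% rose and 23.6% fell. The Fringe enzymes were split: Lfng was at 14.4 ± 3.65 CPM on western diet and 10.3 ± 2.77 CPM on chow (1.41-fold, adjusted p = 0.0190), Mfng was 1.34-fold higher (adjusted p = 0.0397), and Rfng was lower, by 0.23 on the log2 scale (adjusted p = 0.0433). Poglut1, which adds glucose to the receptor, rose 1.20-fold, and Gxylt1, which extends that glucose with xylose, fell by 0.51 on the log2 scale (adjusted p = 2.31e-04). The 3 Fringe calls were fragile. Lfng did not pass without western diet replicate 5, the western diet library with pancreatic transcripts (adjusted p = 0.0516). Mfng did not pass without western diet replicate 4, 5 or 6 or chow replicate 3, 4, 5, 6, 8 or 9 (adjusted p 0.0519 to 0.113; log2 difference 0.27 in place of 0.42 without western diet replicate 5), nor with DESeq2, limma-voom, no low count filter or without both libraries with pancreatic transcripts (adjusted p = 0.0590, 0.0520, 0.0705 and 0.0752). Rfng did not pass without western diet replicate 1, 3, 4, 5 or 8 or chow replicate 1, 2, 4, 7 or 9 (adjusted p 0.0533 to 0.107), nor with library size alone (adjusted p = 0.412) or without both libraries with pancreatic transcripts (adjusted p = 0.124).

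Ligand uptake into the sending cell, which pulls on the bound receptor, is driven by the ubiquitin ligases Mib1 and Neurl1b. Neurl1b rose 1.82-fold (3.25 ± 1.22 CPM on western diet and 1.87 ± 0.584 CPM on chow, adjusted p = 0.00752), the 1 of 3 tested genes of this role that passed. Mib1 was at 29.9 ± 10.8 CPM on western diet and 43.4 ± 19.1 CPM on chow (log2 difference −0.53 ± 0.28, adjusted p = 0.130).

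Among the proteases of the receptor, Adam17 and Adam10 rose by small amounts. Adam17 was at 64.2 ± 8.20 CPM on western diet and 50.1 ± 2.76 CPM on chow (1.28-fold, adjusted p = 2.92e-04), and Adam10 rose 1.24-fold (adjusted p = 0.00413). Furin, which cuts the receptor while it matures, fell by 0.30 on the log2 scale (adjusted p = 0.00223), and Aph1a, a subunit of the gamma-secretase that releases the inner part of the receptor, fell by 0.33 (adjusted p = 0.00492). The other 6 of 10 genes of this role did not pass. Thus 2 of 10 rose and 2 fell, no more than the 24.8% and 23.6% of all tested genes. Both falls missed the threshold with library size alone (adjusted p = 0.0568 for Furin and 0.0771 for Aph1a).

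In the nucleus, Rbpj itself, the DNA-binding partner of the receptor, was at 21.7 ± 1.96 CPM on western diet and 20.2 ± 2.46 CPM on chow (log2 difference 0.095 ± 0.081, adjusted p = 0.349). Of 9 genes of the activating complex, Maml2, a coactivator of the Mastermind family, rose 1.56-fold (adjusted p = 0.00128), and Kat2b, a histone acetyltransferase, fell by 0.46 on the log2 scale (adjusted p = 1.40e-04). The corepressors were split. Tle3, a Groucho-type corepressor that HES proteins recruit, rose 1.77-fold (55.1 ± 12.8 CPM on western diet and 31.2 ± 5.25 CPM on chow, adjusted p = 5.62e-05), as did Hdac1 (1.22-fold) and Ctbp2 (1.39-fold, adjusted p = 0.0336). Lower on western diet were Spen, which holds RBPJ targets silent, by 0.40 on the log2 scale (adjusted p = 5.66e-05), the nuclear receptor corepressor Ncor1, by 0.34 (adjusted p = 5.47e-05), and Tle1, by 0.39. For Ncor1 every western diet liver lay below every chow liver, which held for 5.03% of tested genes. Ctbp2 did not pass without western diet replicate 5 or 8 or chow replicate 3, 5, 7, 8 or 9 (adjusted p 0.0521 to 0.0817).

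Of the genes that govern turnover of the receptor, Dtx3, a ubiquitin ligase of the Deltex family, rose most, at 22.2 ± 4.54 CPM on western diet and 8.43 ± 2.397 CPM on chow (2.65-fold, adjusted p = 8.97e-07). Numbl, related to the Notch inhibitor Numb, rose 1.75-fold (adjusted p = 5.70e-04), whereas Numb fell by 0.26 on the log2 scale (adjusted p = 0.00546) and the ubiquitin ligase Itch by 0.25 (adjusted p = 0.0280). In Dtx3 and Numbl every western diet liver lay above every chow liver, as in 7.01% of all tested genes. With library size alone Numb and Itch did not pass (adjusted p = 0.173 and 0.330), and Itch did not pass without western diet replicate 1 or 2 or chow replicate 3 or 7 (adjusted p 0.0540 to 0.0699).

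Of 7 other target genes tested, 2 rose, a share near the 24.8% of all tested genes that rose. Hes6, Id1, Id2 and Id3 were lower on western diet, by log2 differences of −0.26, −0.46, −0.29 and −0.25, and did not pass. Their adjusted p was 0.106, 0.0909, 0.0645 and 0.271 in the edgeR test. The median log2 difference over the tested genes of this role was −0.25. Sox9, a transcription factor of bile duct cells and a known target of the pathway, was at 30.0 ± 13.2 CPM on western diet and 17.6 ± 5.36 CPM on chow (1.69-fold, adjusted p = 0.0124), and Bhlhe40, a repressor that also answers to the clock and to low oxygen, rose 1.65-fold (adjusted p = 0.0113). Bhlhe40 spread widely on chow, from 60.4 to 231 CPM, against 166 to 224 CPM on western diet, and the highest chow liver lay above every western diet liver. Nrarp, a target that feeds back to damp the pathway, was at 7.24 ± 2.19 CPM on western diet and 5.20 ± 1.81 CPM on chow (log2 difference 0.50 ± 0.21, adjusted p = 0.0519). Nrarp passed without western diet replicate 1, 3 or 4 or chow replicate 1 or 2 (adjusted p 0.0101 to 0.0390), with limma-voom (adjusted p = 0.0284) and with library size alone (adjusted p = 0.0220).

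Markers of several cell types that carry the pathway moved with the diet as well. In bulk liver, more cells of a type and more RNA per cell cannot be told apart. The counts of markers stand against 24.8% of all tested genes rising, 23.6% falling and 48.4% called in either direction. Of 10 bile duct markers 9 were tested and 7 rose, among them Epcam (3.22-fold) and Krt7 (2.84-fold), and their summed level was 75.3 to 140.3 CPM on western diet and 55.1 to 143.5 CPM on chow; the chow maximum was that of replicate 2, with pancreatic transcripts, and the other chow livers reached 87.8 CPM. Cftr was at 0 in 2 chow libraries, and no marker of the list was at 0 on western diet. Sox9 belongs both to these markers and to the targets above. Of 12 markers of mural and stellate cells 11 were tested and 8 rose, among them the PDGF receptor Pdgfrb (2.70-fold), Kcnj8 (1.95-fold) and Rgs5 (1.94-fold), with a summed level of 401 to 690 CPM on western diet and 306 to 486 CPM on chow and none at 0. Smooth muscle genes Myh11 and Acta2 did not pass (0.719-fold and 0.938-fold, adjusted p = 0.334 and 0.875).

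Of 12 endothelial markers, all tested, 4 rose (Lyve1, Cd34, Vwf and Stab2), 1 fell (Kdr, a receptor for VEGF, 0.627-fold) and 7 did not pass, including Cdh5 and Pecam1 (1.15-fold and 1.09-fold, adjusted p = 0.208 and 0.490), which is near the share of all tested genes called, 48.4%; their summed level was 457 to 829.3 CPM on western diet and 571 to 738 CPM on chow, with none at 0. Of 8 fibroblast markers 7 were tested and 5 rose, with a summed level of 202 to 661 CPM on western diet and 126 to 229 CPM on chow and Gli1 at 0 in 1 chow library. All 8 macrophage markers rose (1047 to 1705 CPM summed on western diet and 439 to 683 CPM on chow), 4 of 7 tested lymphocyte markers rose (18.7 to 159 CPM and 9.50 to 63.3 CPM in the same order), and of 8 hepatocyte markers 3 fell, where 24.8% of all tested genes rose and 23.6% fell. The lymphocyte maximum on western diet was that of replicate 5, the library with pancreatic transcripts; the next western diet liver was at 60.3 CPM, below the chow maximum. The part of these shifts in the differences of Notch3, Heyl, Jag1, Dll4, Hes1 and Hey1 was not tested.

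**Figure D4:**
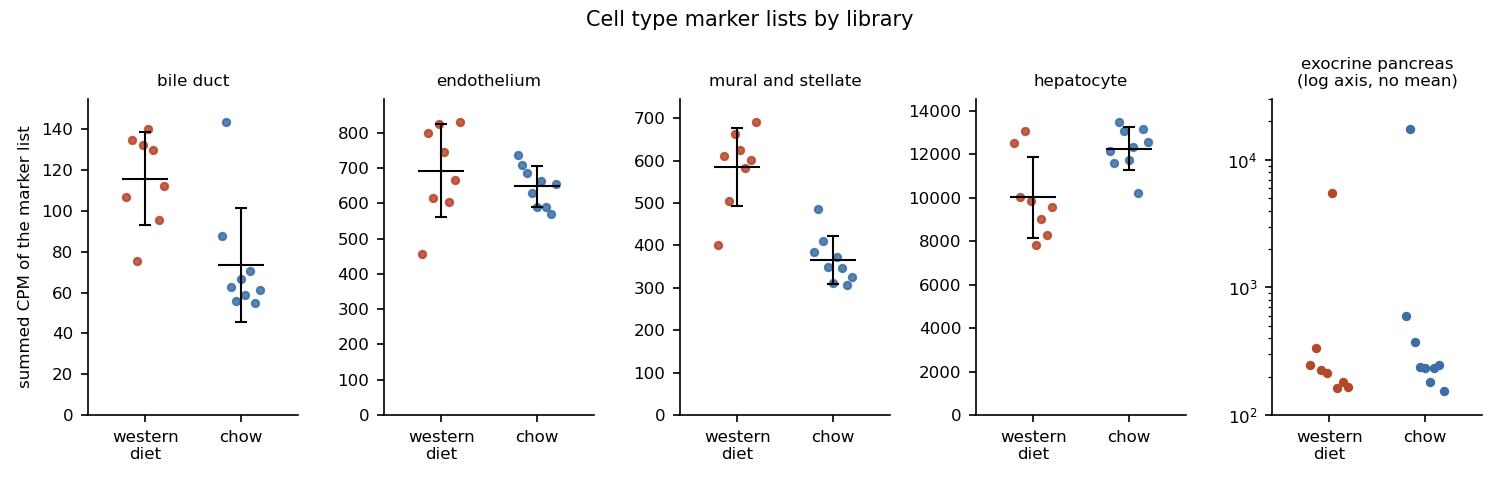
Summed CPM of 5 marker lists in every library, western diet left and chow right; 4 panels have linear axes from 0 with mean and SD (n = 8 and 9), and the pancreas panel has a log axis without a mean. Mural and stellate markers lie at 401 to 690 CPM on western diet and 306 to 486 CPM on chow, and 1 library of each diet stands apart in pancreas markers.

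Among the western diet livers, replicate 3 was the lowest of its diet in 5 of 10 members (Notch1, Notch4, Jag1, Hes1 and Heyl) and replicate 1 in 4 (Notch2, Notch3, Dll4 and Hey1). Replicate 3 was also the highest of its diet in Jag2, and its share of Notch3 among the receptors, 6.40%, was the second highest. These 2 livers also had the lowest summed mural and stellate markers of the diet, 504 CPM in replicate 3 and 401 CPM in replicate 1, and the highest hepatocyte markers, 13052 and 12539 CPM; the part of this in their low member levels was not tested. On chow, replicate 2 was the highest in 6 of 10 members. Without it and western diet replicate 5, the 6 rises had log2 differences of 0.70 (Hes1, adjusted p = 0.0046) to 2.17 (Hey1), and Notch1, Notch2 and Notch4 still did not pass.

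Pairs of members were followed from liver to liver within each diet, 8 relations in all, and none passed after adjustment. Notch4 and Dll4, both endothelial, came closest on chow (Pearson r = 0.714, exact permutation p = 0.0234, adjusted p = 0.187; Spearman rho = 0.733, exact permutation p = 0.0311, adjusted p = 0.212; n = 9). Without the 2 livers farthest from the median of Notch4, r was 0.646. On western diet that pair had r = 0.674 (exact permutation p = 0.0717, adjusted p = 0.191; rho = 0.595, exact permutation p = 0.132; n = 8), which was 0.288 without the 2 farthest livers, replicates 1 and 3. With western diet replicate 5 left out first, the 2 farthest were replicates 3 and 7, and r without them was 0.849, so the trimmed value depended on single livers. Notch3 and Heyl had r = 0.444 on western diet and 0.495 on chow (exact permutation, adjusted p = 0.265 and 0.255), with rho = 0.643 and 0.633 (exact permutation, adjusted p = 0.212 each) and r = 0.513 and 0.706 without the 2 farthest livers. Without chow replicate 2, the library with pancreatic transcripts, the chow values of Notch3 and Heyl were r = 0.244 and rho = 0.476 (exact permutation, adjusted p = 0.581 and 0.278). Notch1 and Hes1 had r = 0.726 on western diet and 0.506 on chow (exact permutation, adjusted p = 0.191 and 0.255), with rho = 0.429 and 0.450 (exact permutation, adjusted p = 0.342 and 0.306); without the 2 farthest livers r was −0.112 on western diet and 0.239 on chow, so the western diet value rested on those livers. Jag1 and Hes1 had r = 0.560 on western diet and −0.449 on chow (exact permutation, adjusted p = 0.255 each), with rho = 0.0476 and −0.567 (exact permutation, adjusted p = 0.935 and 0.212) and r = −0.429 and −0.518 without the 2 farthest livers.

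For each tested member the genes with the most similar pattern were sought among 13020 others that averaged 1 or more in log2 CPM. Likeness was the mean absolute difference, over the 17 libraries, between standardised deviations from the diet mean; the median over genes was 1.07 to 1.11. The smallest was that of Dll4 with Hnrnpul2 (0.306), followed by Heyl with Zmiz1 (0.356) and Notch1 with Plekhf1 (0.360). Notch3 was nearest to Mtss1l (0.383) and Csrp1 (0.386), Hes1 to Fgfr3 (0.391) and Epha1 (0.460), Jag1 to Cmip and Foxp4 (0.397 and 0.398), Hey1 to Edc4 (0.408) and Mlst8 (0.454), Notch2 to Snrk (0.409) and Casc4 (0.422), and Notch4 to Eogt (0.422) and Map4k4 (0.442). The second nearest genes of Dll4, Heyl and Notch1 were Mta2 (0.409), Usp19 (0.384) and Syt7 (0.372). These are the best of many candidates and are given as a description.

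On the mouse assembly GRCm38.p6, also called mm10, the members lie at chromosome 2, 26457902 to 26503822 (Notch1), chromosome 3, 98013538 to 98150367 (Notch2), chromosome 17, 32120820 to 32166896 (Notch3), chromosome 17, 34564286 to 34588543 (Notch4), chromosome 2, 137081451 to 137116520 (Jag1), chromosome 12, 112907803 to 112929812 (Jag2), chromosome 2, 119325784 to 119335666 (Dll4), chromosome 16, 30065357 to 30067796 (Hes1), chromosome 3, 8663359 to 8667038 (Hey1) and chromosome 4, 123233556 to 123249870 (Heyl). Each span is the whole annotated gene in the RefSeq gene table, exons and introns together, and the counts are for the gene as a whole.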

How the data were processed

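RNA of whole liver from 17 mice was sequenced, 1 library per mouse. The authors deposited expected counts per gene symbol in steps of 0.5, not scaled between libraries; 29.4% to 33.7% of the values were not whole. The assembly mm10 and the tools HOMER, MultiQC, FastQC and STAR 2.4.1c are named per the submitters' processing notes. The strand setting, other options, annotation release and handling of duplicates or multiple matches were not given in the sources used here, so overlapping genes and near-identical copies can share reads. Of 24940 genes 3 had no value, and 0 columns were left unmapped. Diets were taken from the treatment field, since the source name reads western diet for all samples; replicates are numbered by accession order and pair nothing. The p-values set a difference or a relation against the variation between these libraries.

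Counts were rounded and filtered with edgeR's filterByExpr, which left 13204 genes, and tested two-sided with edgeR 4.0.16 (R 4.3.3): TMM factors, robust dispersions, glmQLFit and glmQLFTest with diet as the design, a prior count of 0.125, and Benjamini-Hochberg adjustment over all genes at 0.05. The SE is the log2 difference over the square root of F. The biological coefficient of variation was 19.0%. The fit was run on simulated counts, where it called 84.8% of 99 genes changed 2-fold and 65.3% of 98 changed 1.5-fold. Of 12862 unchanged genes 0.0700% were called. Far fewer genes were changed there than were called in these data, so these rates need not hold here. Shares and relations used exact permutation tests over libraries; relations used log2 CPM with a prior count of 2. Python 3.11.15, numpy 2.4.6, pandas 2.3.3, scipy 1.17.1 and matplotlib 3.10.9 served for tables and plots. DESeq2 1.42.0 and limma 3.58.1 served for alternatives.

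The members, lists and tests were chosen with earlier results of these data known. Named were all members, the called genes of each role list, and the 2 genes nearest in pattern to each tested member. Dll1, Mib1, Rbpj, Nrarp, Hes6, Id1, Id2 and Id3 were named after their values were seen. The RefSeq gene table matched 24294 symbols, all 10 members among them. Alternatives changed the scaling, the filter, the tool and the threshold, and left out single libraries or both libraries with pancreatic transcripts; shares of the targets were added after seeing the data. No exon lengths and no promoter sequences were used here. Detection limits cover counting error only; the 95% intervals of log2 differences come from the fit across libraries. The values of 1 bile duct marker are not reported here.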

Additional observations from a re-analysis of the deposited data

Results flagged for a closer look

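Levels of the 10 members were screened for livers far from the others of their diet, by the gap to the nearest liver over the range of the diet. Of 20 sets of values, 2 had such a liver, where chance gives about 1 in 20. Both were Jag2: western diet replicate 3 at 2.60 CPM, with the next western diet liver at 1.61 CPM, and chow replicate 2, which carried pancreatic transcripts, at 2.49 CPM, with the next chow liver at 1.26 CPM. Jag2 had at most 16 counts in a library.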

How the results depend on the processing

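No paired analysis was possible because a mouse of one diet has no labelled partner in the other. The 6 rises among the members were computed under 28 alternatives each; 163 of the 168 values kept direction and threshold, and the 5 that did not came from the test against a 1.5-fold change, which left 1 member risen in place of 6. There Notch3 (log2 difference 0.86, adjusted p = 0.149), Jag1 (0.73, adjusted p = 0.323), Dll4 (0.75, adjusted p = 0.280), Hes1 (0.72, adjusted p = 0.485) and Heyl (0.86, adjusted p = 0.280) did not pass, because that test asks for more than any change. Notch1 changed sign with DESeq2 (−0.0045), limma-voom (−0.00054), no low count filter (−0.015) and without both libraries with pancreatic transcripts (−0.014), and lay at −0.032 to 0.082 when single libraries were left out. Of the other pathway genes 14 rose and 10 fell. With the stricter cut of 0.01 there were 8 rises and 8 falls. The test against a 1.5-fold change left 1 rise and 0 falls. The share of all tested genes passing either of these settings is not given here. These counts, and that of 1 member above, thus have no background to be read against. With library size alone 20 of the 60 tested rose and 5 fell, where 34.0% of all tested genes rose and 12.2% fell. That scaling raised the median of all genes to 0.12 and the share of rises among all calls to 73.5%, in place of 51.2%. Leaving out single libraries gave share differences of −5.43 to −4.07 percentage points for Notch2, 0.686 to 0.996 for Notch4, −1.23 to 0.505 for Jag1, −0.426 to 0.654 for Jag2, −0.702 to 1.02 for Dll4, −8.50 to −5.81 for Hes1 and −0.855 to 1.57 for Heyl. Without both libraries with pancreatic transcripts the Dll4 share difference was −0.641. Shares on CPM per kb were not run, since no exon lengths were used. The cause of these changes was not tested. Depth limits Jag2, Hey1 on chow and Heyl most.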

Other observations

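Some pathway genes lay below the low count filter and were not tested; they are named after their values were seen. Neurl1a, a ubiquitin ligase related to Neurl1b, had 6 to 24.5 counts in western diet libraries and 0 to 6 in chow libraries. It averaged 1.78 ± 0.451 CPM on western diet and 0.391 ± 0.303 CPM on chow (mean ± SD, n = 8 and 9). Every western diet liver lay above every chow liver. That held for 7.01% of tested genes, a set without Neurl1a, and the share among untested genes was not counted. Hey2, another member of the HEY family, had 2 to 7 counts in western diet libraries, against 0 to 5 in chow libraries. Hes5, a target best known from the nervous system, had up to 3.5 counts in a western diet library and 0 in every chow library. Helt had 0 counts in all 17 libraries.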
